A study of Mus musculus with 6 samples.

Results

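The G1 cyclins, their partner kinases and the first E2F factors form the machinery that takes a cell from G1 into DNA synthesis. They were examined here as 10 named genes: the D-type cyclin genes Ccnd1, Ccnd2 and Ccnd3, the E-type cyclin genes Ccne1 and Ccne2, the kinase genes Cdk2, Cdk4 and Cdk6, and the transcription factor genes E2f1 and E2f2. The genes were chosen by name, and all 10 were measured, each by 1 probe set, among the 19938 genes of the array that had a single symbol. Expression was measured on 6 Affymetrix arrays, of 3 samples labelled p65 knockout (KO) and 3 labelled p65 wild-type (WT). The protein p65, or RelA, belongs to the NF-κB family of transcription factors, and the series title places its deletion in the hematopoietic compartment. The promoter that drove the deletion, the strain, the age, the number of animals per sample and any allele carried by the WT mice are not given in the sources used here. Both groups were bone marrow cells sorted as positive for Sca-1 and c-kit and negative for Flk2 and for markers of the mature lineages, a fraction in which blood stem cells and immature progenitors are enriched. All values below are log2 signals, and a log2 fold change is KO minus WT.

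In G1, D-type cyclins bind Cdk4 or Cdk6 and phosphorylate the retinoblastoma protein, which releases E2F factors. E2F factors then drive the genes of DNA synthesis and of cyclin E, and cyclin E with Cdk2 carries the cell across the G1 to S boundary. Most hematopoietic stem cells rest outside the cycle, Cdk6 is known to govern their exit from quiescence, and Ccnd1 is known as a target of NF-κB in several cell types.

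The array of WT replicate 1 differed from all others. Its log2 signals had an SD of 2.03 over all rows, against 2.22 to 2.29 in the other 5 arrays, and it gave the lowest value of 9 of the 10 members. It also gave the lowest value of 84.2% of bright genes, the upper of 3 equal groups by mean signal, and of 39% of all genes, so the fold change of each member is given with and without it. Fold changes varied with signal level. Their median was 0.30 in bright genes, which include 9 of the 10 members, -0.09 in the middle group, which includes E2f2, and -0.22 in the dimmest group. Rela, the deleted gene, had 7.33, 7.48 and 7.35 in KO cells, against 7.52, 7.89 and 7.92 in WT cells, and did not pass the threshold (limma adjusted p = 0.209). It did pass without WT replicate 1 (limma adjusted p = 0.04). The labels do not say which part was deleted, and probes outside that part check nothing. Among the genes of the gate, Kit ran from 10.02 to 10.18 in KO and from 10.08 to 10.63 in WT cells (log2 fold change -0.30, limma adjusted p = 0.327). Kit was called lower in KO cells without WT replicate 1 (-0.48, limma adjusted p = 0.05) and had -0.55 under cyclic loess normalization (limma adjusted p = 0.0604), and its part in the values of the members was not tested. Cd34 ran from 10.68 to 11.02 in KO and from 10.69 to 10.88 in WT cells. The Flk2 gene Flt3 had signals of 7.39 to 7.94 in KO and 7.31 to 8.08 in WT cells despite the negative sort, and the Sca-1 gene Ly6a was not analysed here.

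None of the 10 members passed the threshold of an adjusted p under 0.05 over all 19938 genes in limma. Of all genes, 0.687% were called higher and 0.130% lower in KO cells. At an unadjusted limma p under 0.05, 3 members were higher, Ccne1, Ccne2 and Cdk4, and 0 were lower, where 13.8% of all genes were higher and 7.76% lower. Among bright genes 31.4% were higher at that level. Without WT replicate 1 the members' counts were 3 higher and 0 lower, where 13.6% of all genes and 29.7% of bright genes were higher. Under cyclic loess normalization they were 3 higher and 1 lower, Ccnd1, where 10.3% of all genes and 15.8% of bright genes were higher. The 3 KO values lay above all 3 WT values for 4 members, Ccne1, Ccne2, Cdk4 and E2f1, against 19.2% of all genes and 43.9% of bright genes, and below all 3 for 0 members, against 15.4% of all genes. As deposited, both shares of members that were higher are near those of bright genes. The members' median log2 fold change was 0.34, against -0.04 over all genes and 0.30 in bright genes. Of the 10, 9 were above 0, against 45.9% of all genes, a share not counted for bright genes as deposited. The members above 0 numbered 7 under quantile normalization, 6 under cyclic loess normalization and 6 without WT replicate 1, where the members' medians were 0.14, 0.10 and 0.17. Of bright genes, 55.7% were above 0 under cyclic loess normalization (median 0.04) and 70.2% without WT replicate 1 (median 0.13). In sorted samples of this kind, fewer cells of a type and less RNA per cell cannot be told apart. The plot of the members by array shows the spread behind these counts.

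**Figure D1:**
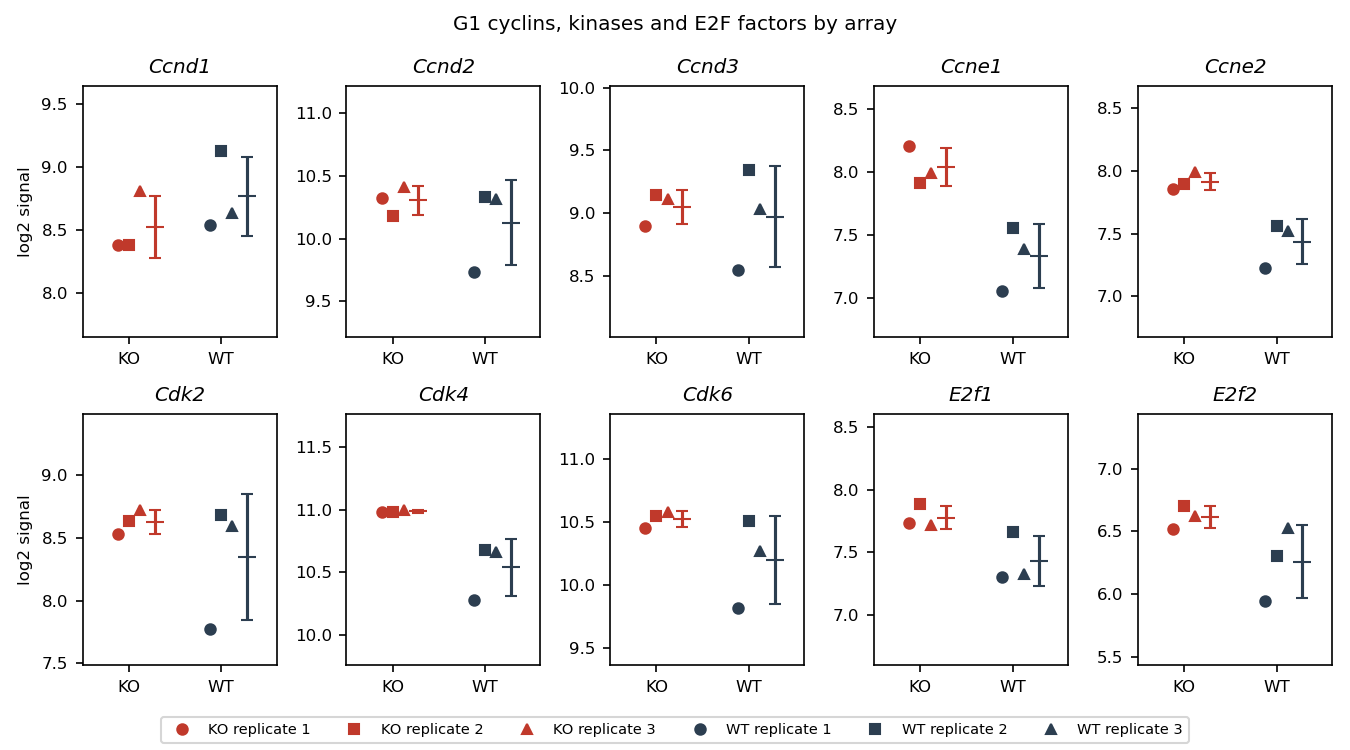
Log2 signal (vertical axis, 2 log2 units in every panel) of the 10 members in the 3 KO arrays (left, red) and the 3 WT arrays (right, dark blue), with the mean and SD of each group as a bar beside the points. KO and WT points separate for Ccne1, Ccne2, Cdk4 and E2f1, and WT replicate 1 (dark circle) is the lowest point of every panel except that of Ccnd1.

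The E-type cyclins had the highest fold changes of the 10 genes with all arrays as deposited, and neither passed the threshold. Ccne1, the cyclin E1 gene (probe set 10562563), had log2 signals of 8.21, 7.92 and 7.99 in KO cells, against 7.05, 7.55 and 7.39 in WT cells. All KO arrays lay above all WT arrays, and the gap between the lowest KO and the highest WT value was wider than the spread within the KO group. Its mean was 8.04 ± 0.15 in KO and 7.33 ± 0.25 in WT cells (SD, n = 3 each), a log2 fold change of 0.71 (95% interval 0.31 to 1.10) or 1.63-fold higher. This did not pass over all genes (limma adjusted p = 0.0935). The log2 fold change was 0.57 without WT replicate 1 (limma adjusted p = 0.0523), and under cyclic loess normalization it was 0.46 (limma adjusted p = 0.116). With limma array weights, which gave WT replicate 1 a weight of 0.116 and the others 0.935 to 2.20, Ccne1 was called (log2 fold change 0.58, limma adjusted p = 0.0264), and the 16 alternatives gave adjusted p-values between 0.0264 and 0.353. Its fold change ranked at percentile 96.4 of all genes, and at percentile 92.4 of bright genes.

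Ccne2, the gene of the second E-type cyclin (probe set 10503264), had 7.85, 7.90 and 7.99 in KO cells, against 7.23, 7.56 and 7.52 in WT cells. Again the groups did not overlap, and the KO arrays lay closer together than the WT arrays. The means were 7.91 ± 0.07 in KO and 7.44 ± 0.18 in WT cells (SD, n = 3 each), a log2 fold change of 0.48 (95% interval 0.14 to 0.81; limma adjusted p = 0.139). It was 0.37 without WT replicate 1 (limma adjusted p = 0.0795), and under cyclic loess normalization 0.24 (limma adjusted p = 0.26). It stayed above 0 in all 16 alternatives and passed in none of them. The genes whose profile over the 6 arrays lay nearest to that of Ccne1 were Dynll1, S100a10 and Rpa3, with root mean square differences of 0.0568, 0.0594 and 0.0607 after each gene was centred on its own mean, where the profile of Ccne1 itself had a root mean square of 0.393.

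Ccne1 had the largest fold change of the members as deposited, so the bases before its start are shown, while under cyclic loess normalization that of Ccnd1 was larger in size. RefSeq promoter windows of the mouse assembly GRCm38.p6, with 250 bases before and 50 after an annotated start, were matched for 7 of the 10 members, in 9 windows. No window was available for Ccnd1, Ccnd2 or Ccne2, so their promoters were not searched. The 250 bases before the start of Ccne1 lie at chr7:38107491-38107740 on the minus strand and hold 76% G and C, against a median of 52.4% over 32851 windows. They hold no match to the E2F-type motif TTTNNCGC, the E-box CACGTG or an NF-κB-type motif (GGG, any 2 bases, then TTTCC) on either strand, where N is any base, so no letters are in capitals.
Ccne1: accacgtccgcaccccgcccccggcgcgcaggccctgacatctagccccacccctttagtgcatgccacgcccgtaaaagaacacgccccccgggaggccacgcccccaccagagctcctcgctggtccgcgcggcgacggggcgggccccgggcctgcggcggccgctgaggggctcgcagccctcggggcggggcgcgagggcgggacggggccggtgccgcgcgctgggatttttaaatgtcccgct

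The D-type cyclins had overlapping values in KO and WT cells, and none passed the threshold. Ccnd1, the cyclin D1 gene (probe set 10569646), had 8.38, 8.38 and 8.81 in KO cells, against 8.54, 9.12 and 8.64 in WT cells. The groups overlapped, since the highest KO array lay above 2 of the 3 WT arrays, and Ccnd1 was the 1 member with a mean below WT and the 1 member not lowest in WT replicate 1. The means were 8.52 ± 0.25 in KO and 8.77 ± 0.31 in WT cells (SD, n = 3 each), a log2 fold change of -0.24 (95% interval -0.71 to 0.22; limma adjusted p = 0.456). It was -0.36 without WT replicate 1 (limma adjusted p = 0.304). Under cyclic loess normalization it was -0.57, with a 95% interval of -0.97 to -0.16 that does not cross 0, and the limma adjusted p was 0.153, the lowest of its 16 alternatives. It stayed below 0 in all 16. As deposited, its fold change ranked at percentile 26.2 of all genes and at percentile 4.14 of bright genes.

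Ccnd2, the cyclin D2 gene (probe set 10548105), had 10.32, 10.18 and 10.41 in KO cells, against 9.74, 10.33 and 10.31 in WT cells. WT replicate 1 alone lay low, and the other 5 arrays lay within a narrow band in which the groups overlapped. The log2 fold change was 0.18 (95% interval -0.26 to 0.61; limma adjusted p = 0.556), and -0.02 without WT replicate 1 (95% interval -0.27 to 0.24). Ccnd3, the cyclin D3 gene (probe set 10445688), had 8.90, 9.15 and 9.11 in KO cells, against 8.55, 9.34 and 9.03 in WT cells. The WT arrays held both the highest and the lowest value, with all KO arrays between them. The log2 fold change was 0.08 (95% interval -0.40 to 0.56; limma adjusted p = 0.816), and -0.13 without WT replicate 1 (95% interval -0.46 to 0.19). The signs of Ccnd2 and Ccnd3 thus turned without that array, and they also turned under quantile and cyclic loess normalization. These intervals do not show that the D-type cyclins are unchanged.

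**Figure D2:**
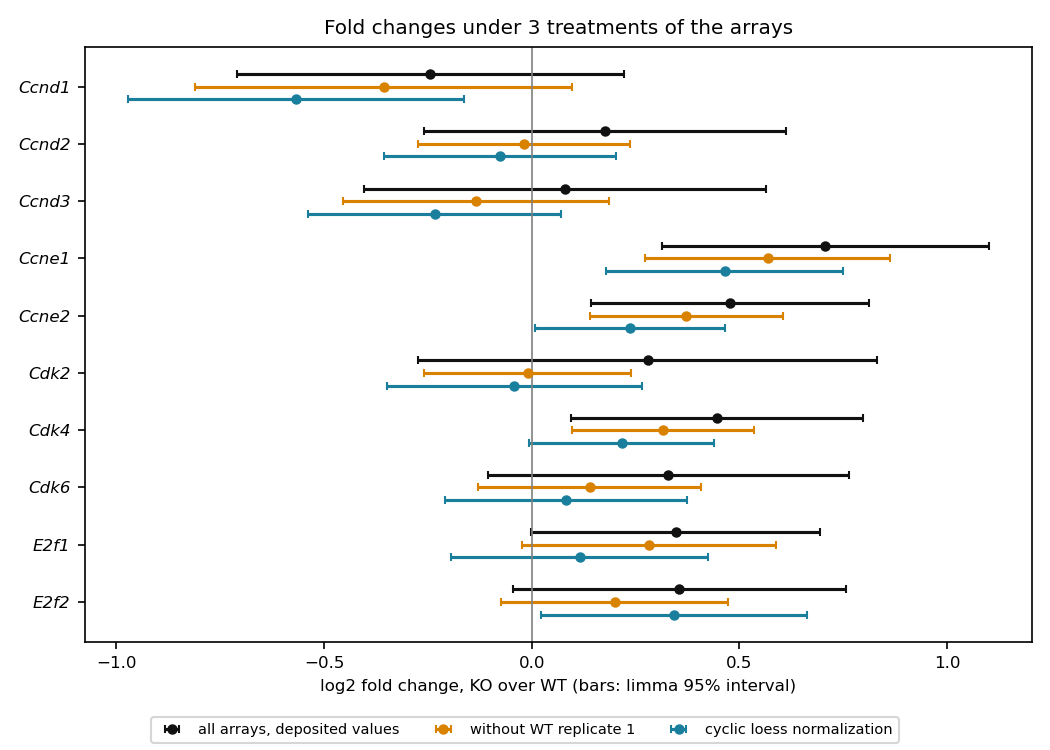
Log2 fold change of each member, KO over WT (horizontal axis), with its limma 95% interval, for all arrays as deposited (black), without WT replicate 1 (orange) and under cyclic loess normalization (blue). The intervals of Ccne1 and Ccne2 lie above 0 in all 3, and those of Ccnd2, Ccnd3, Cdk2, Cdk6 and E2f1 include 0 in all 3.

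None of the 3 kinase genes passed the threshold, and Cdk4 was the 1 whose groups did not overlap. Cdk4 (probe set 10366814), a partner of the D-type cyclins, had 10.98, 10.98 and 11.00 in KO cells, against 10.28, 10.68 and 10.66 in WT cells. The KO arrays were almost equal and all lay above the WT arrays. The means were 10.99 ± 0.01 in KO and 10.54 ± 0.23 in WT cells (SD, n = 3 each), a log2 fold change of 0.45 (95% interval 0.09 to 0.80) or 1.36-fold, with a limma adjusted p of 0.166. Without WT replicate 1 it was 0.32 (limma adjusted p = 0.0982), and under cyclic loess normalization 0.22 (limma adjusted p = 0.284).

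Cdk6 (probe set 10519324), the other partner of the D-type cyclins, had 10.46, 10.55 and 10.58 in KO cells, against 9.82, 10.51 and 10.27 in WT cells. The lowest KO array lay just below the highest WT array, so the groups overlapped. The log2 fold change was 0.33 (95% interval -0.11 to 0.76; limma adjusted p = 0.32), and 0.14 without WT replicate 1 (limma adjusted p = 0.495). It was 0.08 under cyclic loess normalization (limma adjusted p = 0.761) and 0.0013 under cyclic loess without that array (limma adjusted p = 0.997). Cdk2 (probe set 10373530), the partner of cyclin E, had 8.53, 8.63 and 8.72 in KO cells, against 7.77, 8.68 and 8.59 in WT cells. WT replicate 1 alone lay apart, and the remaining 5 arrays of both groups overlapped. Its log2 fold change of 0.28 (95% interval -0.27 to 0.83; limma adjusted p = 0.47) turned to -0.01 without that array (95% interval -0.26 to 0.24) and to -0.04 under cyclic loess normalization.

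The Cdk4 promoter is shown for its E-boxes, the sites bound by Myc and Max and by related factors. The 250 bases before its start lie at chr10:127063285-127063534 on the plus strand. Capitals mark CACGTG, which reads the same on both strands and begins 172, 118, 98 and 11 bases before the start. An E-box was found in 7.15% of all 300-base windows, and 4 or more of them in 8 of 32851 windows, or 0.0244%. Of the 7 members with a window, Cdk6 was the other with an E-box, at 1 position.
Cdk4: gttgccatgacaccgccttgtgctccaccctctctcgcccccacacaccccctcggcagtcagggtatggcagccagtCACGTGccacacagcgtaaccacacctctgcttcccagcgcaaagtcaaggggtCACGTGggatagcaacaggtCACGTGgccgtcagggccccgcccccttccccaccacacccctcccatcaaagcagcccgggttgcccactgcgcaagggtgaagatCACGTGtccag

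The E2F genes had similar fold changes as deposited, though not under cyclic loess normalization, and neither passed the threshold. E2f1 (probe set 10488785), an activator of S phase genes, had 7.73, 7.88 and 7.72 in KO cells, against 7.30, 7.66 and 7.33 in WT cells. The groups did not overlap, though the lowest KO array lay close to WT replicate 2. The means were 7.78 ± 0.09 in KO and 7.43 ± 0.20 in WT cells (SD, n = 3 each), a log2 fold change of 0.35 (95% interval -0.0012 to 0.69; limma adjusted p = 0.232). Without WT replicate 1 it was 0.28 (limma adjusted p = 0.238), and under cyclic loess normalization 0.12 (limma adjusted p = 0.676). E2f2 (probe set 10509168), a second activator E2F, had 6.52, 6.70 and 6.62 in KO cells, against 5.95, 6.30 and 6.53 in WT cells. WT replicate 3 lay just above the lowest KO array. The log2 fold change was 0.36 (95% interval -0.04 to 0.76; limma adjusted p = 0.268), and 0.20 without WT replicate 1 (limma adjusted p = 0.338). Under cyclic loess normalization it was 0.34 (limma adjusted p = 0.246). These values ranked at percentile 81.6 of all genes as deposited, 79.1 without WT replicate 1 and 90.1 under cyclic loess. E2f2 lies in the middle group by mean signal, where the median fold change was below 0. In the finer bins of the plot against signal level, the bin of E2f2 had a median of 0.06.

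**Figure D3:**
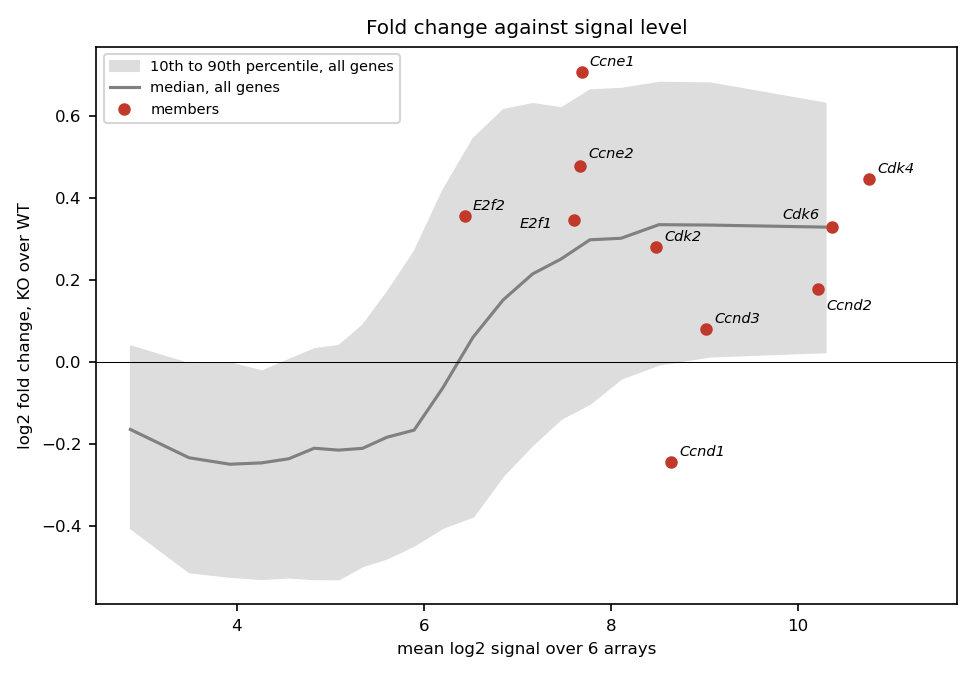
Log2 fold change, KO over WT (vertical axis), against the mean log2 signal over the 6 arrays (horizontal axis). The grey line and band are the median and the 10th to 90th percentile of all genes in 20 bins of equal size, and the red points are the members. Ccne1 lies above the band, Ccnd1 lies below it, and Cdk2, Cdk6 and E2f1 lie close to the line.

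E2F-type motifs were found in the windows of 3 members, Cdk2, Cdk6 and E2f2, against 5.17% of all windows. They are shown because this motif is that of the factors which E2f1 and E2f2 encode, with capitals marking TTTNNCGC or, for Cdk2, its reverse complement. The matches begin 140 bases before the start in Cdk2 (chr10:128705173-128705202, minus strand) and 198 bases before it in Cdk6 (chr5:3343684-3343713, plus strand). In E2f2 they begin at bases 5 and 40 of the transcript (chr4:136172267-136172296 and chr4:136172294-136172323, plus strand). The NF-κB-type motif was found in 0 of the 9 member windows and in 1.63% of all windows. Ccnd1, Ccnd2 and Ccne2 had no window, so this says nothing of their promoters. The matches to the 3 motifs did not overlap each other in the member windows, and a match is a description of letters and not a measured site.
Cdk2: aaccaggaactGCGGGAAAgttgtgcagct
Cdk6: acccccggtgcTTTTACGCcagcttccgaa
E2f2, first match: gaggcgcggcaTTTTCCGCgggagatccga
E2f2, second match: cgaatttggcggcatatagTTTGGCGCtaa

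Related members were compared within arrays, which removes any shift shared by the whole array. It does not remove a change that varies with signal level, as fold changes did here. The difference between 2 genes on an array has no meaning as a level, since probe sets differ in brightness, but its change between groups shows unequal change. For Ccne1 minus Ccne2 the differences were 0.36, 0.02 and -0.0003 in KO arrays, against -0.17, -0.0062 and -0.13 in WT arrays. The groups separated by a very narrow margin, and the fold changes differed by 0.23 (exact permutation test, two-sided p = 0.1, the smallest that 3 against 3 arrays allow; adjusted p = 0.4 over 6 pairs). That difference was 0.11 without KO replicate 1, the 1 high KO array. For Ccnd1 minus Ccnd2 the differences were -1.94, -1.80 and -1.60 in KO arrays, against -1.20, -1.21 and -1.68 in WT arrays. WT replicate 3 lay among the KO arrays, and the fold changes differed by -0.42 (exact permutation p = 0.2, adjusted p = 0.4). Ccnd1 minus Ccnd3 gave -0.32 (exact permutation p = 0.2, adjusted p = 0.4) and Ccnd2 minus Ccnd3 gave 0.10 (exact permutation p = 0.5, adjusted p = 0.6). Cdk4 minus Cdk6 gave 0.12 (exact permutation p = 0.4, adjusted p = 0.6), and E2f1 minus E2f2 gave -0.01 (exact permutation p = 1). That last value was -0.25 after quantile and -0.23 after cyclic loess normalization, and 0.08 without WT replicate 1. The design cannot reach a p under 0.05 for any of the 6 pairs.

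**Figure D4:**
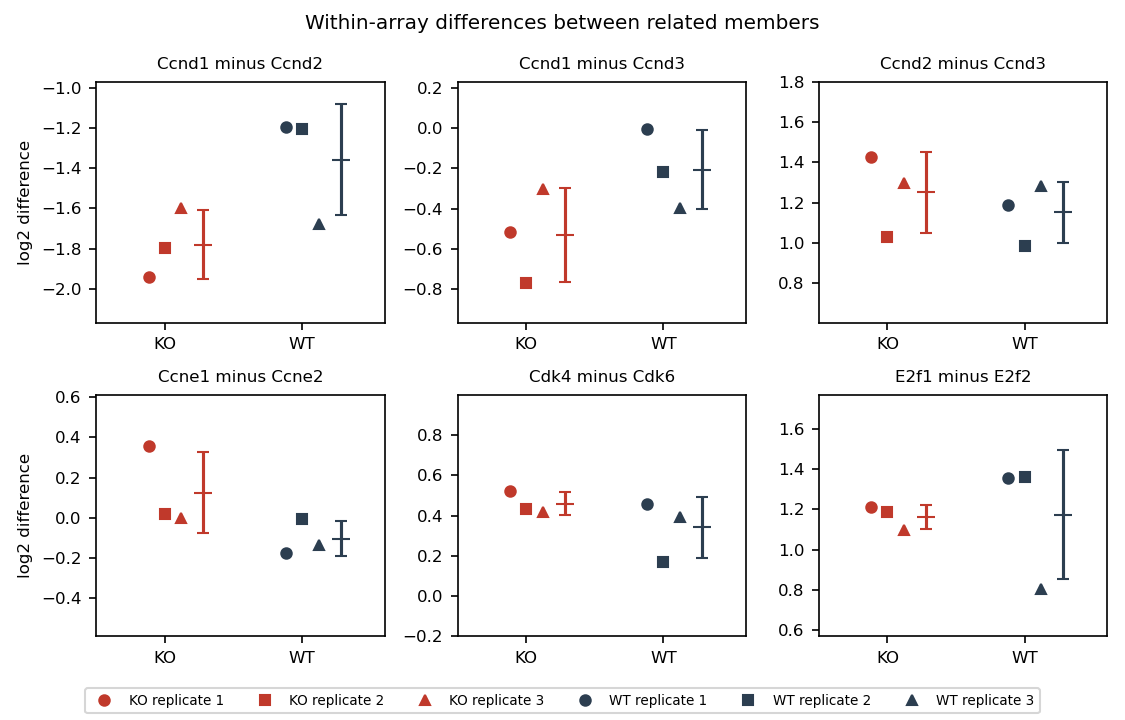
Within-array difference of log2 signal between related members (vertical axis, 1.2 log2 units in every panel), in KO arrays (left, red) and WT arrays (right, dark blue), with the group mean and SD as a bar. KO and WT points separate, narrowly, for Ccne1 minus Ccne2, and overlap in the other 5 panels.

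The rest of the G1 to S pathway was read from 5 lists with 66 genes, of which 63 were measured. At a limma adjusted p under 0.05, 0.687% of all genes and 1.26% of bright genes rose, and 0.130% of all genes fell. Of these 63, 2 rose and 0 fell at that level. Their median log2 fold change was 0.48, against -0.04 over all genes and 0.30 in bright genes, and 28 were higher and 1 lower at an unadjusted p under 0.05, where 13.8% of all genes and 31.4% of bright genes were higher and 7.76% of all genes lower. These counts were 24 higher and 4 lower without WT replicate 1, where 13.6% of all genes and 29.7% of bright genes were higher. They were 17 higher and 5 lower under cyclic loess normalization, where 10.3% of all genes and 15.8% of bright genes were higher. With the replicate number as a block 7 passed, and without WT replicate 1 12 passed, all higher. In these 2 settings 1.87% and 4.66% of all genes passed in either direction, and 194 and 569 of 6646 bright genes did. Leaving out any other array left 0.

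Both genes that passed act later in the cycle than the G1 cyclins. Rrm2, which encodes the small subunit of ribonucleotide reductase and is a target of E2F, rose to 9.17 ± 0.07 in KO cells, against 8.14 ± 0.30 in WT cells (SD, n = 3 each), or 2.04-fold (limma adjusted p = 0.0476). It was the 1 gene of 25 measured E2F targets that passed. Positive values were found for 24 of the 25, against 45.9% of all genes, a share not counted for bright genes as deposited. The targets above 0 numbered 23 without WT replicate 1, against 70.2% of bright genes, and 20 under cyclic loess normalization, against 55.7% of bright genes. Most of these targets are bright genes. The list's median was 0.51, against 0.30 in bright genes. It was 0.32 without WT replicate 1 and 0.23 under cyclic loess normalization, against 0.13 and 0.04 in bright genes. Of the 5 measured cyclins and kinases of S and M phase, Ccnb2 (cyclin B2) rose to 10.45 ± 0.06 in KO cells, against 9.57 ± 0.21 in WT cells (SD, n = 3 each), or 1.84-fold (limma adjusted p = 0.0476). The call of Ccnb2 was lost under cyclic loess normalization (log2 fold change 0.62, limma adjusted p = 0.0693), where that of Rrm2 held (0.70, limma adjusted p = 0.0333). The median of that list was 0.77, and 0.61 both without WT replicate 1 and under cyclic loess normalization.

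Regulators of the kinases and the remaining E2F factors gave 0 calls by limma with all arrays. In the list of kinase activation and cyclin turnover, 7 of 16 genes were higher and 0 lower at an unadjusted p under 0.05. Of all genes 13.8%, and of bright genes 31.4%, were higher at that level. The median of the list was 0.38. The list's counts were 7 higher and 1 lower without WT replicate 1, where 29.7% of bright genes were higher. They were 5 higher and 3 lower under cyclic loess normalization, where 15.8% of bright genes were higher and the list's median was 0.15. Its leading genes were Cks2, which encodes a small CDK-binding subunit (log2 fold change 0.85, limma adjusted p = 0.0531), and Cdc25c, which encodes a phosphatase that activates Cdk1 (0.95, limma adjusted p = 0.0713). Both passed without WT replicate 1, with the replicate block and under cyclic loess normalization. Of the 8 other E2F and DP factors, 1 was higher at an unadjusted p under 0.05, E2f8, an E2F that represses transcription (0.92, limma adjusted p = 0.0722), which passed without WT replicate 1 (0.80, limma adjusted p = 0.0488). E2f8 also passed with the replicate block (limma adjusted p = 0.0478), and did not under cyclic loess normalization (0.60, limma adjusted p = 0.11). E2f6, also a repressor, had 0.55 (limma adjusted p = 0.259), or 0.23 without WT replicate 1, and the median of the 8 was 0.22. Among 9 measured CDK inhibitors and pocket proteins, 2 were higher and 1 lower at an unadjusted p under 0.05. Cdkn1c, the gene of the inhibitor p57, which is known to keep stem cells quiescent, had 5.33, 5.53 and 5.37 in KO cells, against 5.75, 5.83 and 5.82 in WT cells (log2 fold change -0.39, limma adjusted p = 0.162). Every KO value of Cdkn1c lay below every WT value, as for 15.4% of all genes. Its log2 fold change was -0.42 without WT replicate 1 (limma adjusted p = 0.0723) and -0.24 under cyclic loess normalization (limma adjusted p = 0.333). Rb1, the retinoblastoma gene, had 8.19, 8.18 and 8.54 in KO cells, against 6.80, 7.92 and 7.96 in WT cells. WT replicate 1 alone lay far below the rest, and the log2 fold change was 0.74 (limma adjusted p = 0.213), or 0.36 without that array. The inhibitor gene Cdkn1a was not analysed here.

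**Figure D5:**
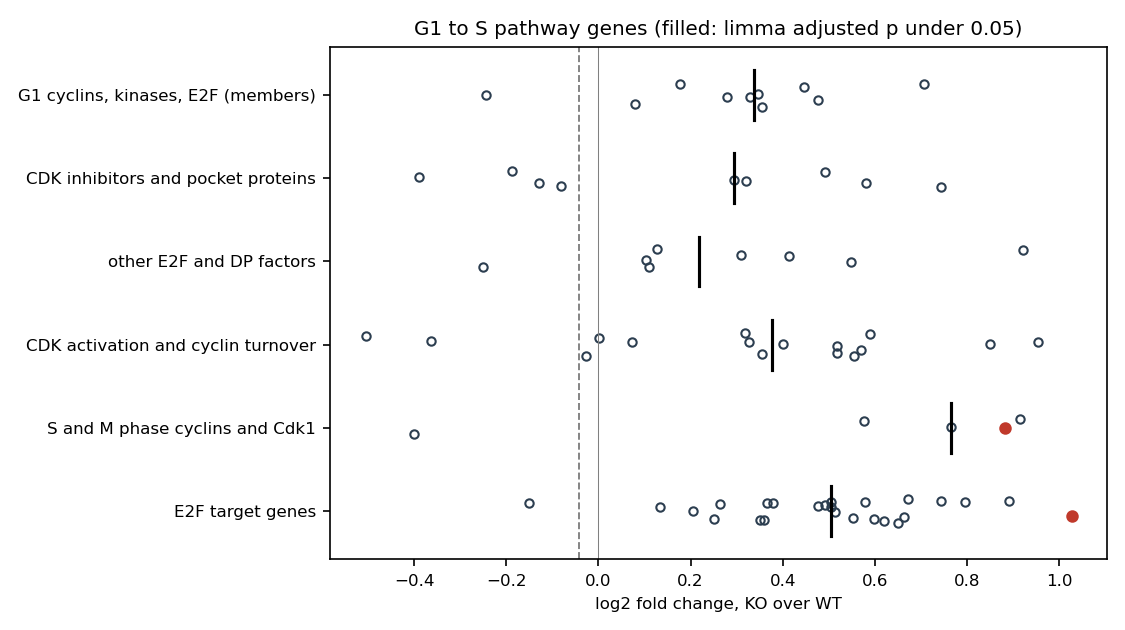
Log2 fold change, KO over WT (horizontal axis), of the members and of 5 lists of pathway genes, 1 point per gene, with the list median as a black bar and the median of all genes as a dashed line. The 2 filled points are Ccnb2 and Rrm2, the genes past the threshold, and no member is filled.

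The lists of granulocyte and monocyte progenitor, stem cell and proliferation genes had per-array means that did not overlap between the groups, and those of 3 mature cell types did overlap. Of 10 genes of granulocyte and monocyte progenitors 7 rose and 0 fell, and the mean log2 signal of the list per array was 8.98 to 9.14 in KO and 7.29 to 7.36 in WT cells. Of 9 measured stem cell genes 1 fell, Hlf, and the list's mean was 6.16 to 6.56 in KO and 6.74 to 7.26 in WT cells. Without WT replicate 1, 6 of these 9 fell. Proliferation genes had a mean of 9.25 to 9.43 in KO and 8.23 to 8.59 in WT cells, and 3 of 5 measured rose, against 4 without WT replicate 1 and 1 under cyclic loess normalization. The erythroid list overlapped between the groups, at 8.31 to 8.85 in KO and 8.32 to 8.66 in WT cells, with 0 calls of 6 (2 higher and 1 lower at an unadjusted limma p under 0.05). The lymphocyte list ran from 5.71 to 5.88 in KO and from 5.82 to 6.04 in WT cells, with 1 of 9 called, Nkg7, which rose. The median of that list was -0.38, 3 of its genes were lower at an unadjusted limma p under 0.05, Cd3d, Cd8a and Ncr1, and Cd3d was called lower without WT replicate 1 (limma adjusted p = 0.0492). Cd3d and Ncr1 lie in the dimmest group by mean signal, where the median fold change was -0.22. The macrophage list ran from 5.46 to 5.64 in KO and from 5.23 to 5.52 in WT cells, with 1 of 8 called, Csf1r, which rose. Its median was -0.07, with 2 higher and 2 lower at an unadjusted limma p under 0.05. The 2 lower genes, Mertk and Cd5l, also lie in the dimmest group. The part of these lists in the values of the members was not tested.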

How the data were processed

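The authors deposited 1 table of log2 signals with 35557 rows for 6 arrays. Partek, Affymetrix Expression Console and RMA appear in the submitters' processing notes with no version, and the design text names another exon array program. Per the labels' protocols, RNA was amplified with the NuGEN Ovation Pico system. Array medians ran from 5.72 to 5.98, so the columns were not matched over all rows. Rows were named through the platform's probe annotation, that of a gene array, while the design text names an exon array. Of the rows, 21789 had 1 symbol, 1621 several and 12147 none. For 999 genes with more rows the one with the highest mean was kept, which left 19938 genes, and 0 columns were left out.

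KO was compared with WT by a two-sided test in limma 3.58.1 under R 4.3.3, fitted on group alone, with Benjamini-Hochberg adjustment over all genes at 0.05. The fit was tested on simulated data. The number of arrays limits the precision. The members, lists and motifs were chosen with earlier results of these data known. Named genes outside the members are, per pathway list, up to 3 past the threshold or otherwise the 2 with the smallest p, and the 3 profiles nearest to the member with the smallest p. The labels exclude technical replicates but do not say how many animals gave each sample, so p-values measure the spread between these samples. Replicate numbers come from the titles. Deviations from the group means of same-numbered arrays correlated at 0.368, 0.119 and 0.162, above the minimum of 0.1, so the number was also fitted as a block. Differently numbered arrays 2 and 3 correlated at 0.183 and 0.195. The 16 alternatives covered the block, normalization, dim genes, variance estimation, array weights, rows per gene and each array left out. Promoter windows are from RefSeq (GRCm38.p6), searched with Biopython 1.88.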

Additional observations from a re-analysis of the deposited data

How the results depend on the processing

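No member passed limma in 15 of 16 alternatives, and with array weights 1 did, Ccne1. The fold changes of Ccnd1, Ccne1, Ccne2, Cdk4, Cdk6, E2f1 and E2f2 kept their sign in all 16, that of Cdk6 at only 0.0013 under cyclic loess without WT replicate 1. With quantile normalization Ccnd2 turned to -0.072, with cyclic loess to -0.077, and to -0.16 with cyclic loess but no WT replicate 1, and it ran from -0.019 to 0.28 with each array left out. Ccnd3 turned to -0.19, -0.23 and -0.29 under the same 3 settings and to -0.057 with array weights, and ran from -0.13 to 0.26 with each array left out. Cdk2 turned to -0.042 under cyclic loess, to -0.16 under cyclic loess without WT replicate 1, and ran from -0.010 to 0.45. The difference of E2f1 minus E2f2 ran from -0.19 to 0.085 with each array left out, and was -0.25 after quantile and -0.23 after cyclic loess normalization.

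Over all genes 163 passed, 137 higher and 26 lower. The count was 372 with the replicate block, 104 under quantile normalization, 358 with the dimmest genes left out, 1599 with array weights and 440 under cyclic loess without WT replicate 1. It ran from 21 to 929 with each array left out, and was 929 without WT replicate 1, 22, 21 and 29 without KO replicates 1, 2 and 3, and 75 and 26 without WT replicates 2 and 3. Of the calls 84% were higher as deposited, 96.9% with arrays centred on their medians, which moved the median of all genes from -0.04 to 0.10, and 68% under cyclic loess normalization. Of the pathway genes 2 passed, against 7 with the block, 1 under quantile normalization, 6 with the dimmest genes left out, 16 with array weights and 4 under cyclic loess without WT replicate 1, and from 0 to 12 with each array left out. The block changed no call among the members. The causes were not tested, and every setting that leaves out an array has fewer samples, also that without WT replicate 1. With 3 arrays a group, changes of the size of those of the members have wide intervals, and genes that miss the threshold are not shown to be unchanged.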

Other observations

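The E-type cyclins were also set against the D-type cyclins within arrays, a comparison chosen after their values were seen. In all 6 pairs of an E-type with a D-type gene the 3 KO differences lay above the 3 WT differences. The share of all gene pairs that separate in this way was not counted. The margin was narrow for Ccne2 minus Ccnd2, with a lowest KO difference of -2.47 and a highest WT difference of -2.51. For Ccne2 minus Ccnd3 these values were -1.25 and -1.32. For Ccne1 minus Ccnd1, the widest of the changes, the differences were -0.17, -0.46 and -0.82 in KO arrays, against -1.49, -1.57 and -1.25 in WT arrays. The change between groups was 0.95 for that pair, and 0.53 for Ccne1 minus Ccnd2 and 0.63 for Ccne1 minus Ccnd3. It was 0.72, 0.30 and 0.40 for Ccne2 minus Ccnd1, Ccnd2 and Ccnd3. The pairs were picked for this pattern and share genes and arrays, so they are given as a description with no test. Without WT replicate 1 the 6 changes ran from 0.39 to 0.92, and under cyclic loess normalization from 0.31 to 1.03.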
